A study of Homo sapiens with 16 samples.

Results

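CTCF sites that lie between protein-coding genes and carried a peak in every library were examined in MCF10A cells, an immortalised line of human breast epithelium that does not form tumours, and in its derivative transduced with an oncogenic G12V form of HRAS, called G12V cells here. The sites are termed constitutive intergenic sites. They were chosen by their presence in the peak lists: overlapping peaks (by 1 bp or more) of the 4 CTCF lists were merged into 29064 sites, and a site was kept when all 4 lists had a peak there and when it touched neither a promoter (1000 bp upstream to 500 bp downstream of a protein-coding transcription start site, TSS) nor the body of a protein-coding gene. This left 3643 sites, which is 12.5% of all CTCF sites, 45.5% of the 8006 sites found in all 4 lists and 27.1% of the 13452 intergenic sites. The other sites of all 4 lists were 2923 sites in gene bodies (genic sites) and 1440 sites at promoters. Presence in the 4 lists is therefore a property of the choice and not a result.

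The series held ChIP-seq for CTCF and p53 with 2 replicates per factor and cell type, each with a peak list, and 8 input samples whose own reads are not analysed here. The CTCF libraries came from parental MCF10A cells and from G12V cells, both without a labelled treatment. The p53 libraries came from the same cells treated with Nutlin, a compound that stabilises p53, before fixation. The HRAS construct entered the cells through a lentiviral vector followed by hygromycin selection, so the G12V cells are a selected population rather than a single clone as far as the methods state. All cells derive from 1 line, and the replicates are described as biological replicates.

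CTCF recognises a long DNA motif with its zinc fingers, and the motif has a strand direction. It is known as the main insulator protein of vertebrates. Together with cohesin, which extrudes chromatin loops and halts at CTCF, it marks many borders of topological domains, and loops form preferentially between sites whose motifs point toward each other. Many CTCF sites are known to be shared among cell types, and methylation of a CG in the motif is known to lower binding at some sites.

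The CTCF lists held 11346 and 20136 peaks for MCF10A replicates 1 and 2 and 12004 and 27678 peaks for G12V replicates 1 and 2. The lists give no read totals. Whole ChIP reads over each summit could be recovered from the fold and the p-value of every peak, and the median over the constitutive intergenic sites was 30 and 36 reads in MCF10A replicates 1 and 2 and 21 and 48 reads in G12V replicates 1 and 2. A site with 21 reads carries a large counting error, and a site without a peak in a list did not pass the caller's limit there, which does not show that it was unbound. The sites were decided mostly by the shorter lists. Of the 2570 intergenic sites found in 3 lists, 1182 were missing from MCF10A replicate 1 and 1339 from G12V replicate 1, against 48 from MCF10A replicate 2 and 1 from G12V replicate 2.

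The sequences at the summits of the sites on which the results turn are printed below in hg19 (GRCh37) coordinates. Each is named by the protein-coding gene with the nearest TSS and runs 5′ to 3′ on the strand given, so that the CTCF core reads forward. Capitals mark the CTCF core motif, a pattern of 12 letters searched on both strands of the 150 bp around the summit with at most 1 mismatch. In the last 2 sequences the other capitalised run is a p53 response element. The GPRIN2 site had 3 mismatches to the core at best and is shown because it ranked among the strongest sites without one.
FMN2 (strongest set, chr1:240139815-240139874, minus strand): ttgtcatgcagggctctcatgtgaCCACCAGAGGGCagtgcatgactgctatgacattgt
ENAH (strongest set, chr1:225662768-225662827, plus strand): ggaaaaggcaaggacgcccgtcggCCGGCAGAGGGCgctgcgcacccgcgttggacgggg
NEMF (strongest set, chr14:50328944-50329003, plus strand): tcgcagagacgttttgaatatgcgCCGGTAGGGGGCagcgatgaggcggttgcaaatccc
GPRIN2 (strongest set, no core, chr10:46983717-46983776, plus strand): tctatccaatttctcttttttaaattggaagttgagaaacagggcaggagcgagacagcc
TENM3 (farthest set, chr4:180788591-180788650, plus strand): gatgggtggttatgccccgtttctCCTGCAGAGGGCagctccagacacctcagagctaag
BRINP3 (farthest set, chr1:188751528-188751587, plus strand): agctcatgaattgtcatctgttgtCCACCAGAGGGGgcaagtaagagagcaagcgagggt
XPNPEP1 (farthest set, chr10:110304436-110304495, minus strand): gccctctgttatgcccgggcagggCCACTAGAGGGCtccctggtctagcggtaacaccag
PRKX (high reads in G12V, chrX:4465442-4465501, plus strand): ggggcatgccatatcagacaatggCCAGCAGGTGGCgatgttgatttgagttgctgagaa
CBX8 (high reads in G12V, chr17:77763811-77763870, plus strand): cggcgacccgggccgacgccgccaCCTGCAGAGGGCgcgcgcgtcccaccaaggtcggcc
RNF212 (low reads in G12V, chr4:1124508-1124567, plus strand): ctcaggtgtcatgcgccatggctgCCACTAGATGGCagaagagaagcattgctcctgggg
NFIC (low reads in G12V, chr19:3305075-3305134, plus strand): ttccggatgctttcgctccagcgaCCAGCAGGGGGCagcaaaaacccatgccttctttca
THNSL2 (p53 peak, chr2:88491151-88491295, plus strand): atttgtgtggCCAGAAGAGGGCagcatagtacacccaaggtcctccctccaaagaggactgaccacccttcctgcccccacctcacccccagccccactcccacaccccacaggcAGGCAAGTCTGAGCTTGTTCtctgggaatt
TBX2 (p53 peak, chr17:59489632-59489922, plus strand): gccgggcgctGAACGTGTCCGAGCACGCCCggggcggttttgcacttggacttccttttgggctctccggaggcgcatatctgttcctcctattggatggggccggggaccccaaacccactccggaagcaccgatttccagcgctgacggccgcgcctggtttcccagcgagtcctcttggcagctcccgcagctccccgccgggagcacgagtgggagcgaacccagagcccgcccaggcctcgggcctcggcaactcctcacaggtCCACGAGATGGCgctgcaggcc

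Constitutive intergenic sites were denser in short gaps between genes than in long ones, although many lay in long gaps. The median distance to the nearest protein-coding TSS was 25950 bp, with quartiles of 10220 and 69662 bp and a largest distance of 2276505 bp. Under 5 kb lay 11.3% of the sites, at 5 to 20 kb 31.1%, at 20 to 100 kb 39.6%, at 100 to 500 kb 15.1% and beyond 500 kb 2.88%. The 9809 intergenic sites found in only 1 to 3 lists lay farther out, with a median of 44850 bp, 8.19% of them under 5 kb and 6.99% beyond 500 kb. Sites closer than the promoter limit could not enter by the rule, so the nearest bin is cut short in both classes.

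**Figure D1:**
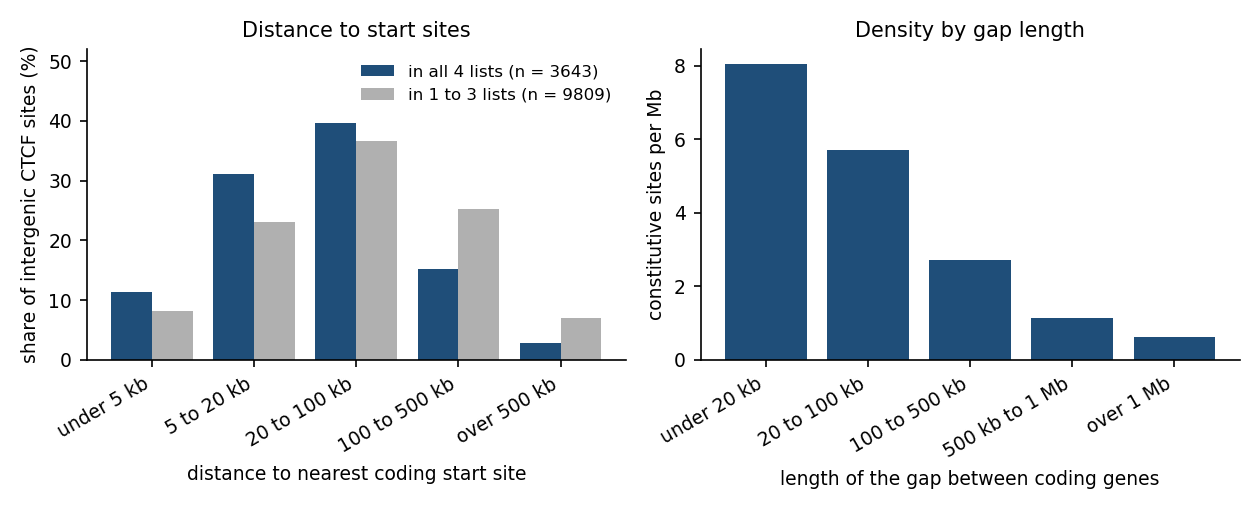
Position of intergenic CTCF sites. The left panel gives the share of sites (%) by distance to the nearest protein-coding TSS for the 3643 sites in all 4 lists and the 9809 sites in 1 to 3 lists, and the right panel the number of constitutive intergenic sites per Mb by the length of the gap between neighbouring coding genes; the density falls from 8.05 per Mb in gaps under 20 kb to 0.629 per Mb in gaps over 1 Mb.

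Counted per Mb of gap, gaps under 20 kb held 8.05 sites, gaps of 20 to 100 kb 5.72, gaps of 100 to 500 kb 2.72, gaps of 500 kb to 1 Mb 1.13 and gaps over 1 Mb 0.629. As shares of the sites between 2 genes, these gaps held 11.6%, 37.6%, 33.4%, 8.18% and 9.20%. The arrangement of the flanking genes made little difference to the density: gaps between divergent genes held 2.46 sites per Mb, gaps between convergent genes 2.28 and gaps between genes in tandem 2.36. At least 1 site was present in 2595 of 15651 gaps (16.6%), and 1917 of these gaps held a single one. The most crowded gaps were PLXNA2 to CAMK1G on chromosome 1 with 13 sites over 1339 kb and GGTLC2 to IGLL5 on chromosome 22, in the immunoglobulin lambda region, with 10 sites over 239.6 kb. ETV3 to FCRL5 on chromosome 1 held 9 sites, and PODXL to PLXNA4 and MKI67 to MGMT held 7 each. By chromosome the density was highest on chromosomes 22 (6.23 sites per Mb of intergenic sequence), 19 (6.22) and 17 (5.79) and lowest on chromosome 4 (0.768).

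Neighbouring sites were often close. The median spacing was 289936 bp, 22.6% of the sites had another within 20 kb, and 81.9% within 500 kb. The body of a long non-coding RNA gene covered 913 of the 3643 sites (25.1%, 95% interval 23.7 to 26.5%), close to the share for the same sites moved by 10 kb to either side, where that place was still intergenic (25.3%). For starts of long non-coding RNA genes the shares lay further apart: 6.64% of the sites (5.86 to 7.50%) lay within 1 kb of one, against 2.32% of the moved sites. Pseudogenes held 2.85% of the sites and 3.30% of the moved ones. Intervals of single shares are exact binomial (Clopper-Pearson) intervals. Those of differences between 2 shares use a normal approximation. Both kinds cover counting error alone.

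The CTCF core motif was present at 2542 of the 3643 sites, 69.8% (68.3 to 71.3%). In windows 2000 bp beside the summits the share was 1.41% (103 of 7286). The share at genic sites of all 4 lists was 71.8%, and the difference of -2.00 points (-4.21 to 0.213) did not pass the test (two-sided Fisher's exact test, adjusted p = 0.121). Promoter sites held the core less often, 55.8%, a difference of 14.0 points (11.05 to 16.98, adjusted p = 1.95e-20), and intergenic sites of 1 to 3 lists less often still, 47.8%, a difference of 21.95 points (20.2 to 23.7, adjusted p = 6.55e-116). The share was higher the more lists held the site, from 36.8% in 1 list to 52.2% in 2, 59.7% in 3 and 69.8% in all 4. The p-values were adjusted (Benjamini-Hochberg) for 6 comparisons, in which sites are the units and no error between cultures is carried. The median GC content of the 150 bp window also differed between the classes and was 56.0% at constitutive intergenic sites, 56.7% at genic sites, 64.7% at promoter sites and 49.3% at intergenic sites of 1 to 3 lists; its part in the motif shares was not tested.

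**Figure D2:**
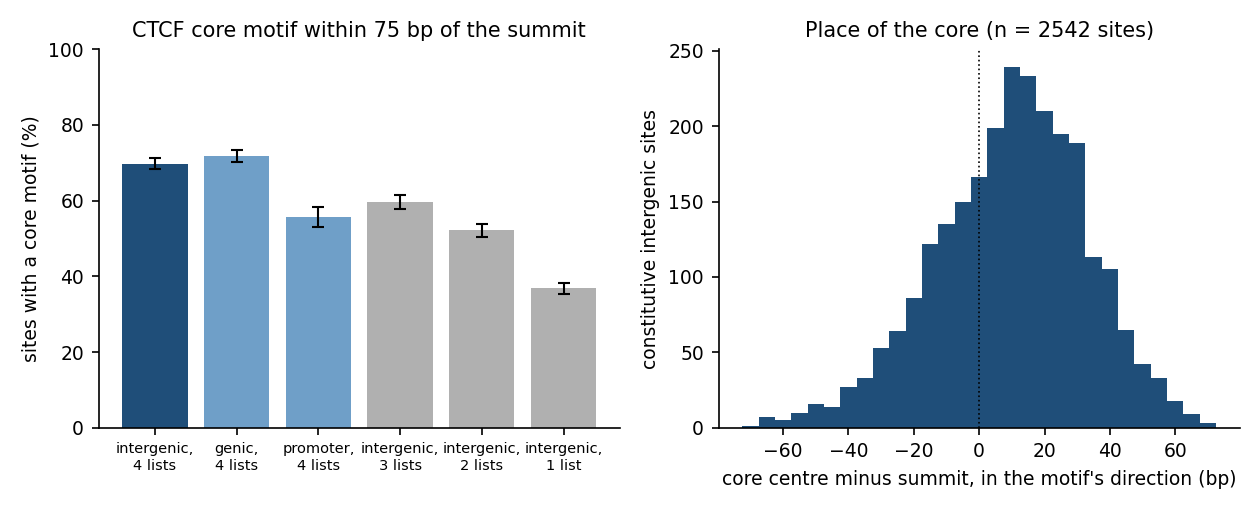
CTCF core motif at the summits. The left panel shows the share of sites with a core (%, bars, with exact 95% intervals) by class and number of lists, from 36.8% for intergenic sites in 1 list to 69.8% in all 4; the right panel shows the number of constitutive intergenic sites by the distance (bp) from summit to core centre in the direction of the motif, with a median of 11 bp downstream.

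Among the constitutive intergenic sites, 1036 (28.4%) had the core with no mismatch, 837 (22.98%) came no closer than 2 mismatches and 264 (7.25%) no closer than 3. When the sites were ordered by their mean rank percentile over the 4 lists and divided into 4 groups of equal size, the weakest group held the core in 65.2% (62.0 to 68.3%) and the 3 stronger groups in 70.5%, 71.6% and 71.8%. In the 5 distance bins above the shares were 67.8 to 71.7%, with overlapping intervals. The median number of reads in G12V replicate 2 was 49 at sites with an exact core, 48 with 1 mismatch, 47 with 2 and 46 with 3 or more, and in MCF10A replicate 1 it was 31, 30, 29 and 29.

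Bases beside the core were not used in the search and were also biased. Counted from 1 at the first base of the core, position 13 held G in 50.4% and A in 43.1% of the 2542 cores, and position 14 held C in 51.3% and G in 35.0%. Further out, position 19 held G in 49.0% and position 22 held C in 48.8%. Upstream, the base just before the core was G in 50.2%. A CG within the core occurred in 271 cores (10.7%). These biases can be seen in the printed sequences, where FMN2, TENM3 and NFIC continue with AG after the capitals and ENAH and CBX8 with GC.

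Cores lay on both strands alike, 1278 on the plus and 1264 on the minus strand. The summit was offset from the core in a fixed direction. The core centre lay a median of 11 bp downstream of the summit (quartiles -5 and 26 bp) when read in the direction of the motif, and it was downstream at 67.8% of the sites. The offset was seen in each library separately, with medians of 15 and 12 bp in MCF10A replicates 1 and 2 and 17 and 12 bp in G12V replicates 1 and 2. The 4 summits of a site spanned a median of 48 bp.

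The direction of neighbouring cores depended on their distance. Over all 2519 pairs of neighbouring constitutive intergenic sites with a core, 26.0% were convergent (pointing toward each other), 25.8% divergent and 48.1% pointed the same way, close to the 25%, 25% and 50% that the strand shares alone would give. Of the 224 pairs under 20 kb apart, only 12.9% (8.84 to 18.1%) were convergent, against 29.0% (23.2 to 35.4%) divergent and 58.0% (51.3 to 64.6%) in the same direction. At 20 to 100 kb the convergent share was 21.4% (17.4 to 25.9%) and the divergent share 30.8% (26.2 to 35.7%). Between 100 and 500 kb the order was the other way round, 29.5% (26.2 to 33.0%) convergent and 23.5% (20.5 to 26.8%) divergent, and it was 30.5% and 24.3% between 500 kb and 1 Mb. Beyond 1 Mb the shares were 26.3% and 25.5%. These pairs are neighbours only within the constitutive intergenic set, since genic and promoter sites can lie between them, and pairs share sites, so no test was made.

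**Figure D3:**
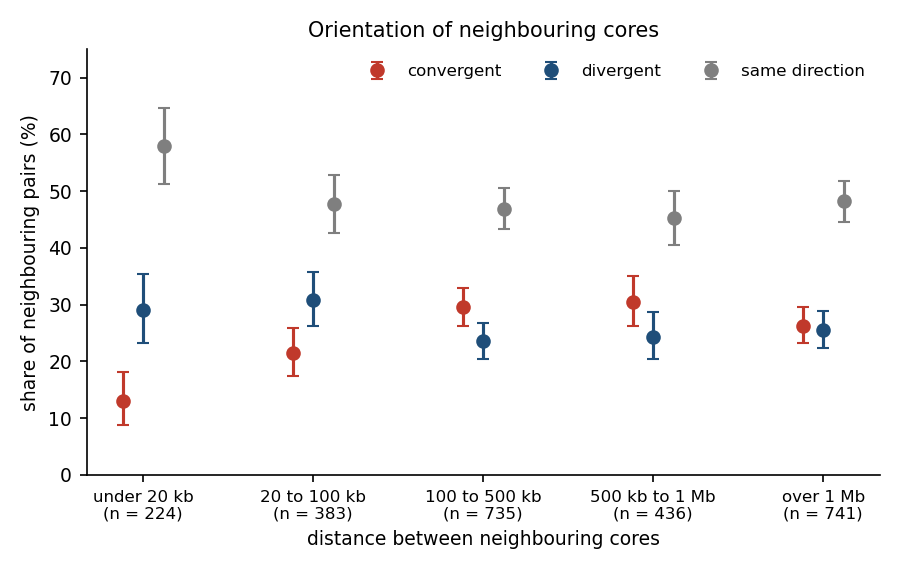
Orientation of neighbouring cores. Points give the share of pairs (%) that were convergent, divergent or in the same direction by the distance between the cores, with exact 95% intervals and the number of pairs under each bin; the convergent share is 12.9% under 20 kb and 30.5% between 500 kb and 1 Mb.

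Cores more often pointed away from the nearest coding TSS than toward it. Of the 2542 cores, 1138 pointed toward it, 44.8% (42.8 to 46.7%). The share was 48.3% (46.1 to 50.4%) at genic sites, 59.8% (56.3 to 63.2%) at promoter sites and 48.8% (47.4 to 50.2%) at intergenic sites of 1 to 3 lists. Within the constitutive intergenic sites it was 49.3% (43.4 to 55.2%) under 5 kb, 46.8% at 5 to 20 kb, 42.0% (38.9 to 45.2%) at 20 to 100 kb and 41.0% (36.1 to 46.0%) at 100 to 500 kb. Beyond 500 kb, where there were 72 cores, it was 61.1% (48.9 to 72.4%).

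The strength of a site was measured in 2 ways: as the fold enrichment of the deposited lists and as the recovered reads over the summit. The fold is the scaled reads over the summit plus 1, divided by the local input background plus 1. For each read the caller counted 0.648 and 0.951 in MCF10A replicates 1 and 2 and 0.994 and 0.937 in G12V replicates 1 and 2. The median fold was 7.43 and 11.3 in MCF10A replicates 1 and 2 and 7.44 and 14.7 in G12V replicates 1 and 2. Reads ranged from 12 to 131 and 9 to 141 in the MCF10A libraries and from 10 to 108 and 13 to 204 in the G12V libraries. The background was low, with a median of 1.9 or 2 in each library, in the unit of the scaled reads. Genic sites of all 4 lists had nearly the same medians, 30, 35, 21 and 48 reads in the same order, and promoter sites 31, 35, 22 and 47.

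The libraries were more alike across the sites by reads than by fold. Across the 3643 sites the Pearson correlation of log2 reads between pairs of libraries was 0.51 to 0.68, while that of log2 fold was 0.15 to 0.28 and that of the log2 background 0.18 to 0.23. These correlations are across sites of the same 4 libraries, which share base composition and mappability, and sites are not replicates. Of the 364 strongest sites by reads in each library, 127 were in the strongest 364 of all 4 libraries, and 717 different sites entered at least 1 of these sets.

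**Figure D4:**
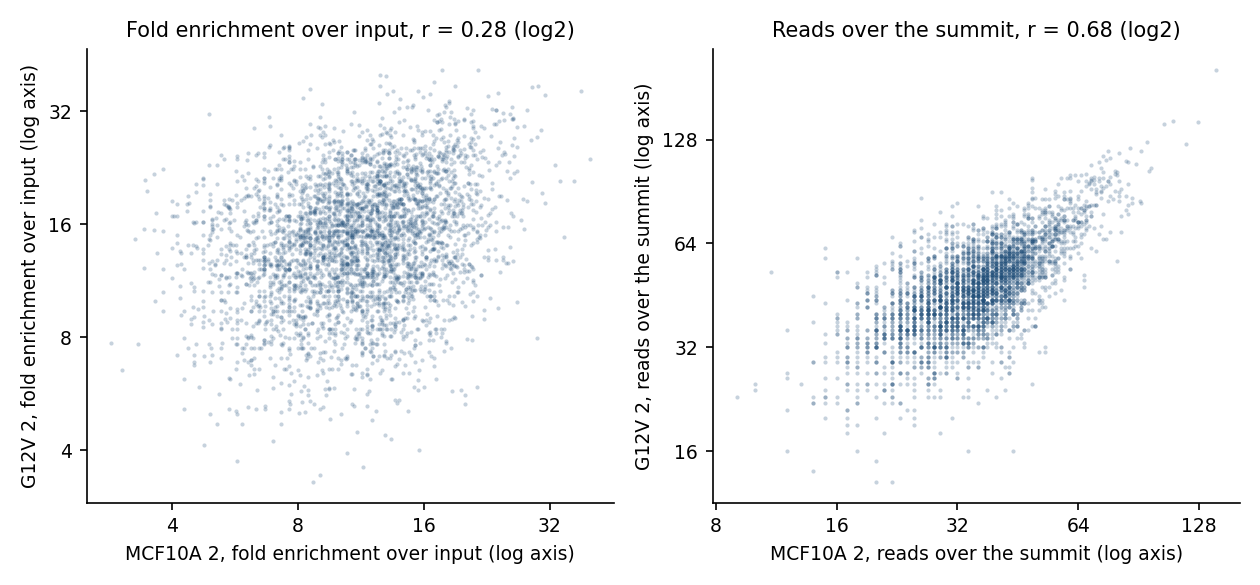
Constitutive intergenic sites in MCF10A replicate 2 (x axis) and G12V replicate 2 (y axis), the pair of libraries with the highest correlation in both measures. Each point is 1 of 3643 sites on log axes, by fold enrichment over input on the left (r = 0.28) and by reads over the summit on the right (r = 0.68), where the points lie much closer to a line.

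The strongest site by the sum of its ranks lay 37775 bp from the TSS of FMN2, an actin-nucleating formin, at chr1:240139629-240140125. It had 83 and 119 reads in MCF10A replicates 1 and 2 and 53 and 124 in G12V replicates 1 and 2, over backgrounds of 2 to 2.23, and it was ranked 8, 1, 13 and 6 in the lists. Its core is exact, as printed above. The ENAH site at chr1:225662568-225663072, 26162 bp from the start of this actin regulator, had 108 and 95 reads in MCF10A and 69 and 126 in G12V. The NEMF site at chr14:50328695-50329195 had 77 and 85 reads in MCF10A and 42 and 110 in G12V, and it lay within a long non-coding RNA gene. These reads are not scaled for the library. Over all constitutive intergenic sites the median was 21 and 48 reads in G12V replicates 1 and 2, so the raw counts do not compare the cell types.

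Also in this set was the GPRIN2 site at chr10:46983363-46984089, with 75 and 127 reads in MCF10A and 76 and 144 in G12V, although its summit sequence held no core with up to 2 mismatches. The remaining one, near RP11-685N3.1 at chr2:91814953-91815557, had the most reads, 131 and 141 in MCF10A and 108 and 204 in G12V. It also had a high background, 7.06 to 12 in the unit of the scaled reads, and a fold of 7.63 to 16.8. Its background stood several times above the median of 2, and the part of this in its read counts was not tested.

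The sites farthest from genes were chosen by distance alone. The most remote one lay 2276505 bp from the TSS of TENM3, at chr4:180788406-180788818, with 24 and 36 reads in MCF10A and 16 and 32 in G12V. The BRINP3 site at chr1:188751295-188751740, 1443821 bp away, had 33 and 38 reads in MCF10A and 21 and 39 in G12V. The TMEFF2 site at chr2:194449384-194449683 had 18 and 17 reads in MCF10A and 14 and 21 in G12V. At the TENM2 site, chr5:165057176-165057661, the reads were 35 and 72 in MCF10A against 30 and 68 in G12V. The XPNPEP1 site, chr10:110304261-110304668, had 22 and 22 reads in MCF10A and 12 and 38 in G12V. All 5 carried the core with at most 1 mismatch. Over the 105 sites beyond 500 kb the median reads were 27 and 34 in MCF10A against 20 and 45 in G12V, against 31, 35, 21 and 48 under 5 kb.

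Whether the strength of these sites differed between G12V and MCF10A cells was tested with limma across all 8006 sites of the 4 lists. By fold enrichment no constitutive intergenic site passed an adjusted p of 0.05, nor did any other site (0% of those tested), and the smallest adjusted p was 0.740. Of the sites tested 5.26% had an unadjusted p under 0.05; among the constitutive intergenic sites it was 192, of which 89 were higher and 103 lower in G12V. The median 95% interval of a site, unadjusted, reached 0.902 on either side on the log2 scale. The fitted fold differed by more than 2 times at 259 of the 8006 sites, 120 of them constitutive intergenic, and none passed the adjustment. The rule kept sites with a peak in every list, so a site that a cell type had lost could not be among them. The median log2 fold difference was -0.0046 over the constitutive intergenic sites and -0.0057 over the other sites of all 4 lists.

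At the sites with the smallest p by fold the input background differed between the cell types as well. The FANCL site at chr2:58675174-58675618 had a fold of 12.8 and 21.4 in MCF10A and 5.22 and 5.90 in G12V, a log2 difference of -1.72 (limma, SE 0.453, adjusted p = 0.740). Its reads were 38 and 44 in MCF10A against 20 and 43 in G12V, and its background was 1 and 1 against 3 and 6. The C11orf96 site at chr11:43966263-43966719 had a fold of 5.11 and 5.24 in MCF10A and 11.9 and 24.5 in G12V, a log2 difference of 1.51 (SE 0.452, adjusted p = 0.740). Here the reads were 30 and 32 in MCF10A against 24 and 52 in G12V, and the background was 3 and 5 against 1.09 and 1.03. Both sites were chosen by smallest p, which favours fold values that do not overlap between the cell types. Their raw reads overlapped but are not scaled for the library. Over all constitutive intergenic sites the medians were 30 and 36 reads in MCF10A and 21 and 48 in G12V, so this overlap does not compare the cell types.

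The other sites of this kind were GRM3, TSEN15, ELAC2 and CRYBA4 with a higher fold and ZP2, SCIMP, ZNF703 and TMEM132C with a lower fold in G12V, with log2 differences of 1.40 to 1.47 and of -1.52 to -1.47. Over the 89 sites with a higher fold at an unadjusted p under 0.05 the background was lower in G12V in 86, with a median log2 background difference of -1.10 beside a median log2 read difference of 0.24. Over the 103 sites with a lower fold the background was higher in G12V in 103 of 103, with medians of 1.30 for the background and -0.26 for the reads. These sites were chosen by the fold, which divides the reads by this background, so a background shift in the opposite direction is favoured by the choice and supports nothing further.

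The same test on log2 reads over the summit, an analysis added after the data had been seen, called 2 of the 8006 sites (0.025%) and none of the constitutive intergenic ones, whose smallest adjusted p was 0.0898. At an unadjusted p under 0.05 it gave 280 of them, 168 higher and 112 lower in G12V, while 7.78% of all sites had such a p. The median 95% interval reached 0.50 on either side, narrower than with the fold. With the replicate number as a block 63 of the 8006 sites passed. Of these, 31 were constitutive intergenic, a class that makes up 45.5% of the sites tested, with 22 higher and 9 lower in G12V. The labels give the same replicate numbers in both cell types but do not tie them to a shared day or culture, so the calls with the block rest on numbers that may pair nothing.

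The sites with the smallest p by reads are given as values. The CANX site at chr5:179095417-179095839, 10028 bp from the start of the gene of the chaperone calnexin, had 18 and 16 reads in MCF10A and 31 and 53 in G12V, a log2 difference of 1.22 after normalisation (limma, SE 0.239, adjusted p = 0.0898). The PRKX site at chrX:4465243-4465668 had 14 and 15 reads in MCF10A and 19 and 58 in G12V (log2 difference 1.24, SE 0.247, adjusted p = 0.0898). The CBX8 site at chr17:77763571-77764010, near the gene of a Polycomb subunit, had 26 and 15 reads in MCF10A and 46 and 62 in G12V (log2 difference 1.36, SE 0.284, adjusted p = 0.0908). The 3 were chosen by smallest p, their raw reads are not scaled for the library, and none passed the adjustment. Around CBX8, from 60 to 80 Mb on chromosome 17, 44 of 44 sites had more reads in G12V and the input background was higher as well.

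In the other direction, the RNF212 site at chr4:1124302-1124749 had 41 and 49 reads in MCF10A and 16 and 25 in G12V (log2 difference -1.12, SE 0.239, adjusted p = 0.0908). The NFIC site at chr19:3304865-3305302 had 33 and 43 reads in MCF10A and 12 and 27 in G12V (log2 difference -1.08, SE 0.236, adjusted p = 0.0908). Both carry an exact core, printed above. The SORCS1, PPY and NEDD1 sites followed, with log2 differences of -1.07, -0.96 and -0.99, and on the other side SPTLC3 and UTP18 with 1.18 and 1.20, the latter also on chromosome 17, between 40 and 60 Mb, where 47 of 63 sites had more reads in G12V. By fold, RNF212 and NFIC had log2 differences of -0.55 and -0.65 with an adjusted p of 0.98 (limma).

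In a few stretches of the genome most sites had more reads in G12V. When the sites were divided into steps of 20 Mb and the 129 steps with at least 10 sites were compared, the median log2 read difference (G12V minus MCF10A) passed 0.3 in 3 steps, a limit set after the values had been seen, and lay between -0.20 and 0.16 in the other 126. The 3 steps were chromosome 17 from 40 to 60 Mb with 0.34 (47 of 63 sites higher in G12V), chromosome 17 from 60 to 80 Mb with 0.54 (44 of 44) and chromosome 9 from 0 to 20 Mb with 0.55 (24 of 25). Among all 3643 constitutive intergenic sites 1721 (47.2%) were higher in G12V. The steps were chosen by their median, so a majority of higher sites in them follows from the choice. The input background was raised in the same steps, by a median log2 difference of 0.67, 0.62 and 0.66; its part in the read differences, and the copy number of these regions in the G12V cells, were not tested.

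Per library, the median log2 reads in the chromosome 17 step from 60 to 80 Mb, relative to all constitutive intergenic sites of that library, were -0.10 and -0.26 in MCF10A replicates 1 and 2 and 0.49 and 0.40 in G12V replicates 1 and 2. In the chromosome 9 step they were -0.26 and -0.08 against 0.36 and 0.42. In the chromosome 17 step from 40 to 60 Mb they were 0.14 and 0.00 against 0.36 and 0.27. Both G12V libraries were thus above both MCF10A libraries in each of the 3 steps, which the choice of the steps favours. These steps held 132 of the 3643 sites but 12 of the 31 that passed with the block. Outside them 19 passed, 11 higher and 8 lower. The steps were chosen by the same reads, so a larger share of calls in them is favoured by the choice.

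**Figure D5:**
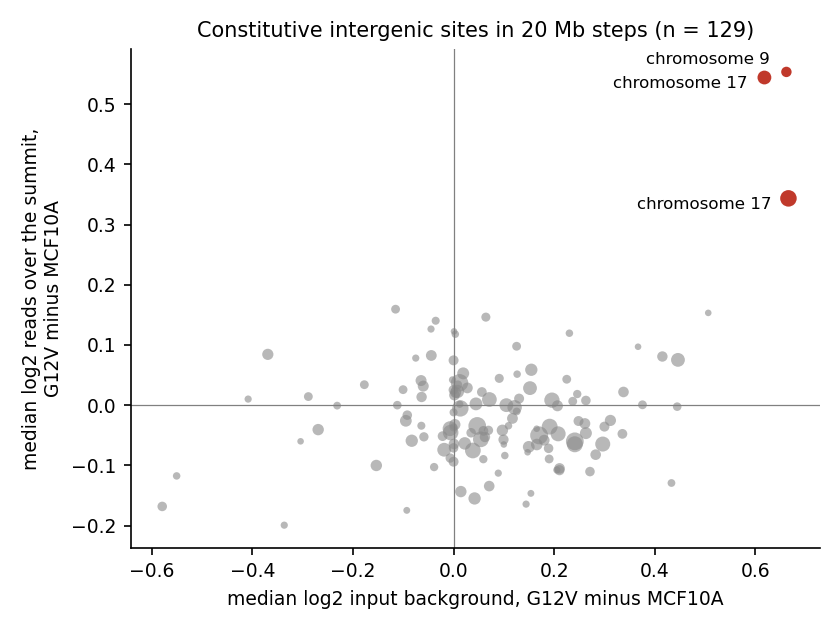
Read and background differences of constitutive intergenic sites in 129 steps of 20 Mb. Each point is a step, sized by its number of sites, with the median log2 background difference (G12V minus MCF10A) on the x axis and the median log2 read difference on the y axis; 3 red points, 2 on chromosome 17 and 1 on chromosome 9, lie above 0.3 while the other 126 lie between -0.20 and 0.16.

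On the short arm of chromosome 9 the sites chosen after their values were seen were spread over several Mb. The KANK1 site at chr9:763962-764515 had 27 and 31 reads in MCF10A and 43 and 82 in G12V. The DMRT2 site at chr9:1429324-1429786 had 15 and 16 against 18 and 53, and the SMARCA2 site at chr9:1837456-1837886, near the gene of a catalytic subunit of the SWI/SNF remodeller, 19 and 21 against 30 and 49. The KDM4C and DMAC1 sites, at chr9:7234131-7234547 and chr9:7536308-7536768, had 25 and 25 against 33 and 65 and 23 and 31 against 33 and 77. These raw reads are not scaled for the library. After normalisation the log2 differences of the 5 were 0.89 to 1.06 with adjusted p of 0.0908 to 0.220 (limma).

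Few constitutive intergenic sites carried a p53 peak. The p53 lists were not used in the choice of the sites. The MCF10A lists held 1718 and 885 peaks, the G12V lists 477 and 2619. A p53 peak of any list overlapped 17 of the 3643 sites, 0.467% (0.272 to 0.746%), against 8 when the p53 peaks were moved by 10 kb. The share was 0.342% at genic sites (10 sites, adjusted p = 0.561 by two-sided Fisher's exact test), 0.208% at promoter sites (3 sites, adjusted p = 0.266) and 0.214% at intergenic sites of 1 to 3 lists (21 sites, adjusted p = 0.0354). The last difference rested on 1 library. All 17 sites had a peak in the longest p53 list, G12V replicate 2, and 12 in that list alone, and without it 5 sites were left and the adjusted p was 0.331.

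No site had a p53 peak in all 4 p53 lists, 2 had one in 3 lists and 3 in 2 lists. The ACBD6 site at chr1:180484938-180485330 had p53 fold values of 14.7 and 3.31 in MCF10A replicates 1 and 2 and 18.5 in G12V replicate 2, with CTCF reads of 36 and 55 in MCF10A and 23 and 65 in G12V. The KCNK18 site at chr10:118976042-118976675 had a p53 fold of 6.71 in MCF10A replicate 1 and of 5.29 and 12.4 in G12V replicates 1 and 2, and CTCF reads of 36 and 49 against 31 and 58. The p53 summit lay a median of 117 bp from the CTCF summit over the 17 sites, and within 100 bp at 6.

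A p53 response element was found at the p53 summit of 10 of the 17 sites, and 7 of these had a CTCF core at the CTCF summit. The p53 summit can lie outside the CTCF site, as near GPR157, so the site itself need not hold both motifs. For comparison, 75.7% of the 5699 p53 peaks of all lists held the element, and 0.549% of all constitutive intergenic sites (20) held one at the CTCF summit. In the THNSL2 sequence printed above, an element with no mismatch follows the core in a window of 145 bp; this site had a p53 fold of 6.64 and 10.7 in G12V replicates 1 and 2 and no peak in MCF10A. In the TBX2 sequence the element has 2 mismatches and precedes the core; the site, near the gene of a T-box repressor, had a p53 fold of 6.47 in MCF10A replicate 1 and 20.3 in G12V replicate 2. The strongest p53 peaks at these sites lay near GML, a known p53 target, with a fold of 50.6, and near GPR157 with 47.5, both in G12V replicate 2 alone and with p53 summits 648 and 774 bp from the CTCF summit.

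The surroundings of 2 lists of genes were examined. The first held 6 genes whose domains the study had profiled, and a constitutive intergenic site lay within 500 kb of the TSS of 5 of them. CDH1, the gene of the epithelial adhesion protein E-cadherin, had 4, all upstream, the nearest 146661 bp away at chr16:68624280-68624764 with 35 and 46 reads in MCF10A and 30 and 50 in G12V. FBN1, MMP1 and SLCO5A1 had 1 each, and FN1 had none. The MMP1 site, 64693 bp downstream of this collagenase gene, had 31 and 45 reads in MCF10A and 18 and 52 in G12V. The raw CTCF reads at the sites named here overlapped between the cell types, but they are not scaled for the library. Over all constitutive intergenic sites the G12V libraries had medians of 21 and 48 reads, so this overlap does not compare the cell types.

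The second list held 39 genes known for gene deserts or boundary elements beside them, most of them developmental transcription factors, and 28 had a site within 500 kb. Of all 20090 coding genes 73.8% had one, with a median of 2 sites. MSX2 had the most with 9, followed by TAL1 with 8, IGF2 with 6 and IHH with 5. MSX2 lies on chromosome 5 between 160 and 180 Mb. There the median log2 reads were 0.32 to 0.47 above those of all constitutive intergenic sites in the 4 libraries. The part of this in the count was not tested. Among the nearest sites, some lay close to the start of NR2F1 (1698 bp upstream), DLX5 (2906 bp), SHH (2916 bp) and SOX2 (9637 bp). The SHH site at chr7:155607865-155608295 had 29 and 23 reads in MCF10A and 22 and 52 in G12V. The SOX2 site at chr3:181419868-181420291 had 41 and 56 against 25 and 66, and the MSX2 site at chr5:174220664-174221133 had 53 and 51 against 28 and 81. SOX9, whose nearest site lay 419535 bp downstream in the step of chromosome 17 from 60 to 80 Mb, had 30 and 20 reads there in MCF10A and 35 and 52 in G12V.

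The values at the edges of the rule are given as a description. The weakest sites inside, near FAM161A, NELL2 and EPB42, had a peak in their weakest list with a −log10 q of 1.33 to 1.37, close to the caller's limit, and 14 to 16 reads in G12V replicate 1. The strongest sites left out because a single list lacked a peak were near TMEM33, with 55, 34 and 78 reads in MCF10A replicate 2 and G12V replicates 1 and 2, FYB2, with 37, 60 and 73 reads outside G12V replicate 1, and STK35, with 39, 39 and 54. The sites nearest to a gene body but outside it were those near PNCK, HAPLN2 and KLHDC8A, and sites near TLN1, EBF1 and AKR1A1 were left out for an overlap with a gene body of 2, 12 and 19 bp. KLHDC8A had 100 and 89 reads in MCF10A and 54 and 109 in G12V, and PNCK 35 and 27 against 31 and 41.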

How the data were processed

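CTCF and p53 ChIP-seq peak lists of MCF10A and G12V cells were analysed, 2 libraries per factor and cell type. Groups and replicate numbers came from the sample titles. The authors aligned reads with Bowtie, kept unique alignments to hg19 and called peaks with MACS2 against input at its default limit, and each deposited list comes from 1 library. The deposited lists give per peak a score, the fold enrichment and the −log10 p and q values. The fold is a ratio of scaled summit reads to local background, with 1 added to each. The lists hold no read totals. The study states aligned reads per library, by which the libraries with the shorter CTCF lists had more reads than those with the longer lists.

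Peaks were merged into sites and classed with GENCODE genes on GRCh37, from which the sequences were also read. The strongest peak of a site in a list gave its values. Since the caller derives fold and p from a single pair of numbers, reads at the summit and local background, this pair was solved for on a grid of whole reads, which succeeded for 100% of 71164 CTCF peaks. This step and the limma fits were tested on simulated data. Fold values were compared with limma (version 3.58.1) after quantile normalisation of log2 values over the sites of all 4 lists, without a block and with Benjamini-Hochberg adjustment. The fold is a ratio, so no count model was used, and reads were tested only as an added alternative, also with limma. Fisher's exact test (two-sided) was used for shares. Named sites were the 5 with the smallest rank sum, the 5 farthest from a TSS, the 5 with the smallest p per direction, those at the edges of the rule, those with p53 peaks in the most lists, and the site nearest to each listed gene; the sites with the smallest p by reads, those on chromosome 9 and the other p53 sites were added after their values were seen. Members and lists were chosen with earlier results of these data known. Results for some genes are not reported here.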

Additional observations from a re-analysis of the deposited data

How the results depend on the processing

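The count of 0 constitutive intergenic sites that differed by fold was also 0 under median centring, the mean over peaks, the filter on low values, each left-out library and the replicate block, where the median relative difference was -0.017 as without it. Whether the replicate numbers pair the samples is not given by the labels, and the correlation of deviations was 0.031 for fold and 0.12 for reads over only 2 pairs, too few to tell. The reads over the summit were a measure chosen after seeing the data. There the replicate block called 63 of the 8006 sites, 31 of them constitutive intergenic. Median centring called 11, with 7 constitutive intergenic, and both together 96, with 51. Among the 4003 sites above the median mean 9 were called, 4 of them constitutive intergenic. Outside the 3 steps of 20 Mb the replicate block gave 19 constitutive intergenic sites. The cause of these differences between settings was not tested. The relative difference was -1.20 percentile points on ranks in place of log2 fold. The motif share against genic sites turned to 0.898 points with no mismatch allowed, and it was -2.52 to -1.89 without single libraries, with an adjusted p of 0.0463 by Fisher's exact test and -2.18 points without MCF10A replicate 1. The p53 share against genic sites turned to -0.026 points for summits within 500 bp. Against intergenic sites of 1 to 3 lists it lost its call at 0.246 points for peaks with a −log10 q of at least 5, at 0.150 for summits within 500 bp, and at 0.155 and 0.196 without G12V replicates 1 and 2 of CTCF, with a range of 0.0659 to 0.302 without single libraries. The convergent share of neighbouring pairs was 18.3% up to 100 kb, 12.9% under 20 kb, 29.9% from 100 kb to 1 Mb and 17.7% with no mismatch up to 100 kb. The number of sites was 3660 to 4982 without single libraries. The reads over a summit, with a median of 21 in G12V replicate 1, and the spread between 2 replicates limit the precision at a single site.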
